A study of Mus musculus with 6 samples.

Results

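The genes described are 9 that handle iron, zinc and copper, chosen by symbol from the 22564 protein-coding genes of the deposited table: the metallothioneins Mt1 and Mt2, the ferritin chains Fth1 and Ftl1, the iron importers Tfrc and Slc11a2, the iron exporter Slc40a1, the zinc exporter Slc30a1 and the metal-sensing transcription factor Mtf1. The 6 RNA sequencing libraries carry the label liver, from C57BL/6 males 10 weeks of age. In 3 libraries the mice had received tunicamycin, an inhibitor of N-linked protein glycosylation that loads the endoplasmic reticulum with unfolded protein, at 0.2 mg/kg into the peritoneum each day for 14 days, and 3 libraries were labelled as control. The sources used here do not say what the control mice received. The labels do not say that each library came from its own mouse, so p-values measure the spread between these libraries, which may be partly technical.

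Metallothioneins are small cysteine-rich proteins that bind zinc and copper. MTF1 switches their genes and Slc30a1 on when free zinc rises, by binding metal response elements in promoters, and liver metallothionein is known as a gene product that responds strongly to metals, glucocorticoids and inflammation. Ferritin is a shell of heavy (Fth1) and light (Ftl1) chains that stores iron, the heavy chain oxidising it and the light chain helping to lay it down. Iron regulatory proteins bind hairpins called iron-responsive elements: in a 5′ untranslated region (UTR) they block translation of ferritin and ferroportin when iron is scarce, and in the 3′ UTR of Tfrc they protect the messenger from decay. That control of ferritin acts mainly on translation, which RNA sequencing of whole messengers does not measure.

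The hairpin elements of these genes are shown because those found lie in the 5′ UTR of Fth1, Ftl1 and Slc40a1 and in the 3′ UTR of Tfrc. The transcripts of GENCODE M21 (build GRCm38) were searched for a C, 5 bases, the loop CAGTGN and 5 bases that pair with the 5 before the loop, G-T pairs allowed. 4 of the 9 genes had such a match in a UTR, at 7 sites, and 1.34% of 21877 protein-coding genes had a match anywhere in a protein-coding transcript. Each line gives 28 bases of the messenger strand with the loop in capitals.
Fth1 5′ UTR, chr19:9982733-9982760, plus strand: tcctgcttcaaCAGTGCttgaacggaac
Ftl1 5′ UTR, chr7:45459779-45459806, minus strand: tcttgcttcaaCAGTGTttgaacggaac
Slc40a1 5′ UTR, chr1:45925465-45925492, minus strand: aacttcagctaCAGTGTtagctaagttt
Tfrc 3′ UTR, chr16:32631220-32631247, plus strand: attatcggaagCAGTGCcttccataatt
Tfrc 3′ UTR, chr16:32631599-32631626, plus strand: attatcgggagCAGTGTcttccataatg
Tfrc 3′ UTR, chr16:32631664-32631691, plus strand: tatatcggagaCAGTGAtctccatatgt
Tfrc 3′ UTR, chr16:32631711-32631738, plus strand: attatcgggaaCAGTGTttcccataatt
The heavy and light chain elements share the same stem letters around the loop. The pattern had no match in a UTR of Slc11a2. It asks for 5 unbroken pairs, so an element of another shape would be missed here and in the other genes. The search therefore does not show that Slc11a2 lacks an element.

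The metal response element cores of the metallothionein promoters are shown because both genes carry several close to their start. RefSeq windows (GRCm38.p6, 250 bases before the start and 50 from the start on) were found for 7 of the 9 genes; Slc11a2 and Slc40a1 had none in the table used. They were searched on both strands for TGCGCNC or TGCACNC, and the cores stand in capitals in the lines that follow, all on the plus strand. Where the capitals read GNGCGCA or GNGTGCA, the core lies on the other strand.
Mt1, chr8:94179056-94179082: ggtcccgctgTGCACACtggcgctcca
Mt1, chr8:94179081-94179107: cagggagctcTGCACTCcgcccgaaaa
Mt1, chr8:94179099-94179125: gcccgaaaagTGCGCTCggctctgcca
Mt2, chr8:94172385-94172411: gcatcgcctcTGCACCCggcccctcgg
Mt2, chr8:94172480-94172506: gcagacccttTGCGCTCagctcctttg
Mt2, chr8:94172558-94172584: gggggagggcGTGTGCAggctctgtcc
Mt2, chr8:94172612-94172638: aattcgggtcGTGCGCAggcccagggg
Slc30a1, chr1:191906728-191906754: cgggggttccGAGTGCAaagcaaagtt
Slc30a1, chr1:191906801-191906827: cctccgggccGAGCGCAgtcgccgcgg
Of 32851 windows, 1.97% held at least the 3 matches of Mt1, 0.517% at least the 4 of Mt2 and 7.11% at least the 2 of Slc30a1. Windows of the 250 bases before the start were searched first and held 1 match for Mt1 (21.4% of windows held as many), 3 for Mt2 (1.26%) and 1 for Slc30a1 (21.4%), and the longer window was chosen after those counts were seen. The RefSeq starts of Mt1 and Mt2 used here differ from the first bases of these genes in GENCODE M21, given further on. By that first base the last Mt2 core also lies before the start. One of the Tfrc windows held 2 overlapping matches, both before the start, and those of Fth1, Ftl1 and Mtf1 held none. A match is a string of letters and was not shown to be bound here.

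The libraries held few reads on protein-coding genes, 541022 to 661145 by the deposited counts, and were unevenly filled. How many reads were sequenced in all is not among the values used here. Of 22564 genes, 13826 were listed at 0 FPKM (fragments per transcript length and library size) in all 6 libraries. Genes above 0 FPKM numbered from 3046 in control library 1 to 5482 in tunicamycin library 1. Libraries resembled each other little: Pearson correlations of log2 values were 0.28 to 0.35 within groups. Between groups they were 0.27 to 0.38, so libraries of 1 group were no more alike. For a gene with 0 reads the upper limit, set at 3 reads in each library, is a share of 0.000454% to 0.000555%, which covers counting error only. Hepatocyte markers were sparse for a liver: 7 of 12 were at 0 in all 6 libraries, Apoa1, Ttr, Ahsg and Serpina1a among them. The others (Alb, Apoa2, Apob, Fgb and Hnf4a) summed to 160 to 192 FPKM after tunicamycin and 359 to 492 FPKM in controls. Markers of squamous epithelium, a cell type that liver lacks, summed to 199 to 707 FPKM after tunicamycin and 456 to 842 FPKM in controls. That sum came from Krt14, Sprr1a, Sprr1b and Sfn alone, with 8 of 12 at 0 throughout, Krt5 and Trp63 among them. Markers of neutrophils (8 of 8), Kupffer cells (8 of 11), endothelium (9 of 10), red blood cells (7 of 8) and stellate cells (8 of 10) were mostly at 0, and those of cholangiocytes less so (3 of 8). Some liver genes of iron control were also listed at 0 in all 6 libraries. Among them were Hamp (hepcidin, the hormone that closes the iron exporter), Tfr2, Hfe2, Bmp6, Tmprss6 and Hp. Others were detected: Trf (transferrin) had 219, 103 and 133 FPKM after tunicamycin and 281, 110 and 309 FPKM in controls. Cp and Hpx were above 0 in some libraries. The part of these marker differences in the results was not tested, and in such bulk samples fewer cells of a type and less RNA per cell cannot be told apart.

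The 9 genes fell into a ferritin pair far above the rest, a metallothionein pair below it and 5 sparse transporters and regulators. By mean FPKM over the 6 libraries, Fth1 ranked 13 and Ftl1 15 among all genes, followed by Mt1 (137), Mt2 (196), Tfrc (1641), Slc11a2 (2218), Slc30a1 (3734), Mtf1 (6374) and Slc40a1 (7583). Every Fth1 and Ftl1 value lay above every value of the other 7 genes. Within the order, Fth1 and Ftl1 overlapped each other, as did Mt1 and Mt2, and so did each further pair of neighbours. All 9 genes entered the test, 3 of them (Mt2, Fth1 and Ftl1) above 0 in all 6 libraries, and the tunicamycin and control values of every one of the 9 overlapped.

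No gene of the 9 passed the test between tunicamycin and control. In limma's test on log2(FPKM + 1), 0 of 9 had a Benjamini-Hochberg adjusted p under 0.05, where 5 of all 7696 genes tested did (0.065%), 4 of them higher (0.052%) and 1 lower (0.013%). Mt1 and Mt2 were the 2 of 9 with an unadjusted limma p under 0.05, a mark that 3.09% of all genes reached. edgeR, run on reads, also called 0 of 9, with 0 at an unadjusted p under 0.05. Of all 7696 genes it called 0.039%, and 1.49% reached that unadjusted mark. DESeq2, also on reads, gave an adjusted p to 7 of the 9 and called 0 of these. It gave no p for Mt2 and no adjusted p for Slc40a1. Of the 8 with a DESeq2 p, 1 (Mtf1) had an unadjusted p under 0.05, as did 6.83% of the 6531 genes with a p. Of the 4285 genes with an adjusted p, DESeq2 called 0.793%. Both the SE and the p of limma were set by how genes of similar abundance varied, with no weight on the spread of the gene itself. An exact 2-sided permutation test of 3 libraries against 3 cannot give a p under 0.1, and for the 9 genes it gave 0.2 to 0.7.

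**Figure D1:**
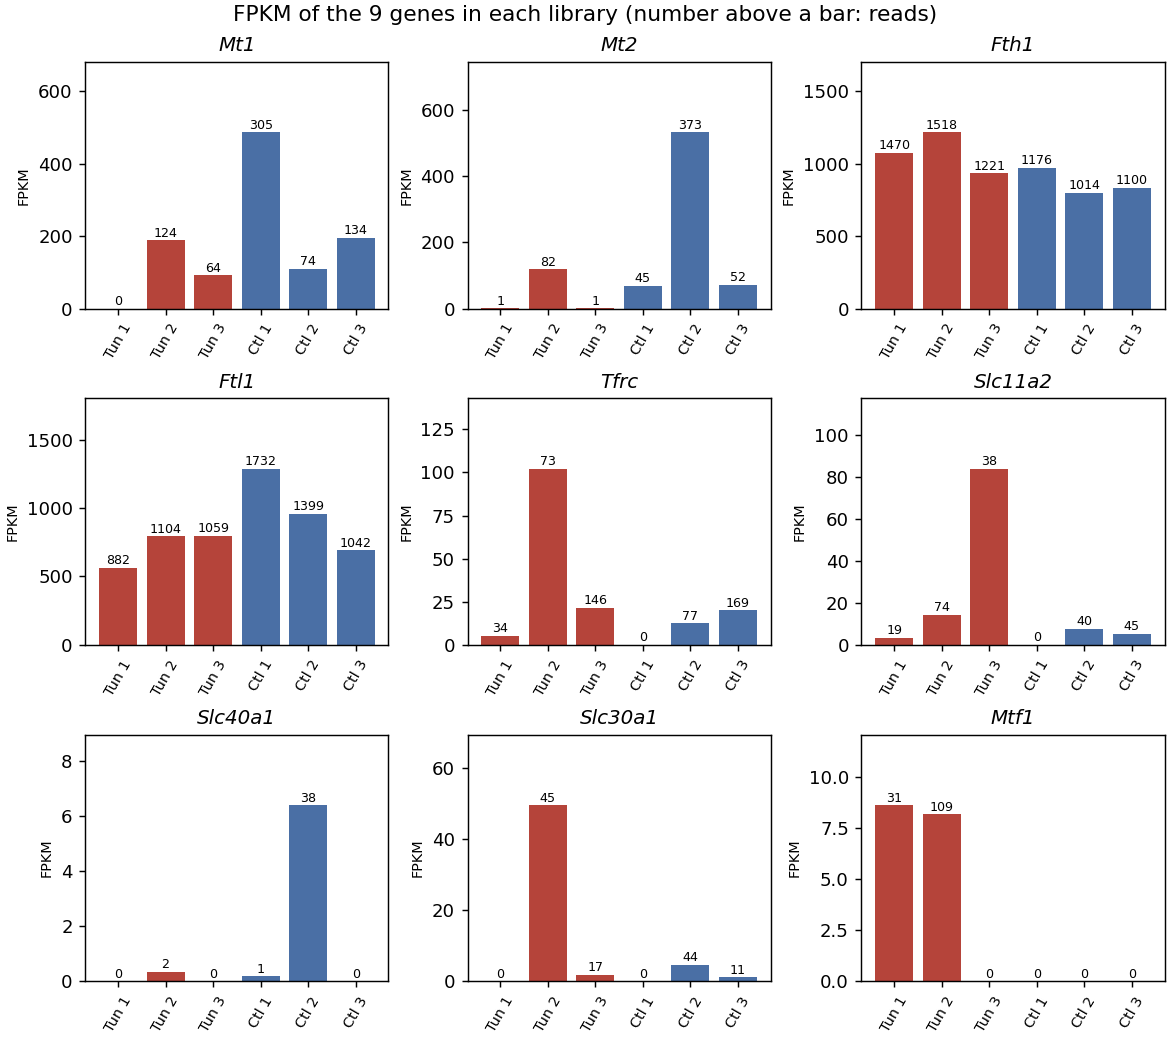
Bars give FPKM (vertical axes, each starting at 0) of the 9 genes in tunicamycin libraries 1 to 3 (red) and control libraries 1 to 3 (blue), with the number of reads above each bar. Fth1 and Ftl1 stand at 563 FPKM or more in all 6 libraries, whereas 6 of the other 7 genes are listed at 0 in at least 1.

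Fth1, the heavy chain that oxidises iron for storage (chromosome 19, bases 9980598 to 9985098, plus strand), was the steadiest of the 9. It had 1074, 1214 and 933 FPKM after tunicamycin, against 973, 797 and 832 FPKM in controls. Tunicamycin libraries 1 and 2 lay above all controls and tunicamycin library 3 below control library 1. The means were 1074 ± 140 FPKM after tunicamycin and 867 ± 93.0 FPKM in controls (SD, n = 3 each), a limma log2 fold change of 0.31 (SE 0.33, adjusted p = 0.852). Its coefficient of variation over the 6 libraries was 16.02%, and 2 of 24 genes of like level varied less (their median was 31.8%). Reads of Fth1 numbered 1470, 1518 and 1221 after tunicamycin and 1176, 1014 and 1100 in controls. Set against the library's total reads the groups overlapped, and edgeR gave a log2 fold change of 0.48 with an adjusted p of 0.647.

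Ftl1, the light chain (chromosome 7, bases 45457944 to 45459884, minus strand), leaned the other way without passing the test. It had 563, 794 and 798 FPKM after tunicamycin, against 1286, 957 and 693 FPKM in controls. The highest values were those of control libraries 1 and 2, and control library 3 lay below tunicamycin libraries 2 and 3. The means were 718 ± 135 FPKM after tunicamycin and 979 ± 297 FPKM in controls (SD, n = 3 each), with a log2 fold change of -0.42 (SE 0.36, adjusted p = 0.852, limma). Its coefficient of variation was 29.6%, and 10 of 27 genes of like level varied less. Ferritin genes have near-identical copies, among which the counting could split reads. The copy listed as Gm10116 (Ftl1-ps1 in GENCODE M21, chromosome 13) held 5, 291 and 41 reads after tunicamycin and 61, 10 and 22 in controls. Among the Ftl1 levels, that of tunicamycin library 2 is therefore the most open to a split with this copy. Reads on processed pseudogenes of both chains, such as Fth-ps2 and Ftl1-ps2 in GENCODE M21, were not examined, so Fth1 may be affected too.

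The balance of heavy to light chain was therefore set out per library. Fth1 divided by Ftl1, each as FPKM, was 1.91, 1.53 and 1.17 after tunicamycin, against 0.756, 0.833 and 1.20 in controls. Control library 3 exceeded tunicamycin library 3, so the groups overlapped, with means of 1.54 ± 0.369 after tunicamycin and 0.930 ± 0.238 in controls (SD, n = 3 each). As a ratio of reads it was 1.67, 1.38 and 1.15 after tunicamycin and 0.679, 0.725 and 1.06 in controls, without overlap. With the reads of Gm10116 added to Ftl1 the ratio of reads was 1.66, 1.09 and 1.11 after tunicamycin and 0.656, 0.720 and 1.03 in controls. The ratio was chosen with the values known and carries no test. How many ratios of other gene pairs lacked overlap was not counted. Among all single genes tested, 5.74% had no overlap in FPKM. The ferritin totals of the groups overlapped: Fth1 and Ftl1 together took 0.385%, 0.473% and 0.383% of reads after tunicamycin, against 0.538%, 0.418% and 0.324% in controls.

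**Figure D2:**
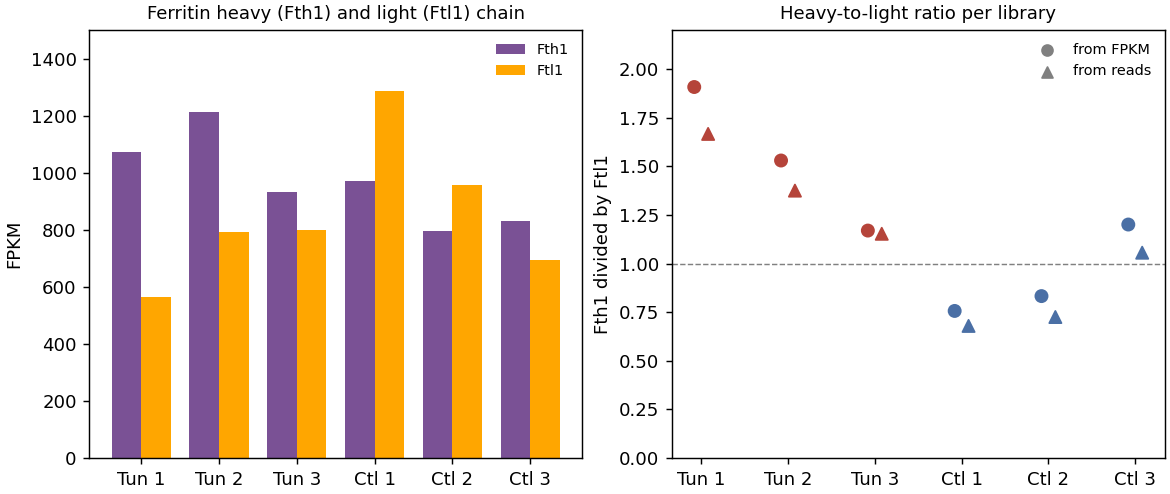
Left, FPKM of Fth1 and Ftl1 in tunicamycin libraries 1 to 3 and control libraries 1 to 3; right, Fth1 divided by Ftl1 per library from FPKM (circles) and from reads (triangles), red for tunicamycin and blue for control, with a dashed line at equal levels. From reads the 3 tunicamycin ratios lie between 1.15 and 1.67 and the controls between 0.679 and 1.06, whereas from FPKM control library 3 (1.20) exceeds tunicamycin library 3 (1.17).

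Mt1, which binds zinc and copper (chromosome 8, bases 94179082 to 94180327, plus strand), had the lower mean after tunicamycin without a call. It was listed at 0 and had 188 and 92.3 FPKM in tunicamycin libraries 1, 2 and 3, against 486, 110.1 and 195 FPKM in controls. Tunicamycin library 2 lay above control library 2, so the groups overlapped. The reads behind these values were 0, 124 and 64 after tunicamycin and 305, 74 and 134 in controls. The limma log2 fold change was -3.08 (SE 1.11, unadjusted p = 0.00565, adjusted p = 0.852), and the exact permutation p was 0.2. Most of it rested on the library at 0: without tunicamycin library 1 it was -0.73, and edgeR on reads gave -1.31. Over the alternatives tried, the adjusted p of Mt1 ranged from 0.670 to 0.9999. Of 299 genes of like mean, 69 (23.1%) were at 0 in at least 1 library. The coefficient of variation of Mt1 was 93.3%, and 214 of the 299 varied less (their median was 72.7%).

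Mt2, its neighbour in the genome with the same metal-binding role (chromosome 8, bases 94172664 to 94173568, plus strand, 5513 bases from Mt1), was unevenly spread in both groups. It had 1.30, 119 and 1.38 FPKM after tunicamycin, against 68.6, 532 and 72.5 FPKM in controls. Tunicamycin libraries 1 and 3 were near 0 with 1 read each, and tunicamycin library 2 with 82 reads lay above control libraries 1 and 3 with 45 and 52 reads. The means were 40.6 ± 68.0 FPKM after tunicamycin and 224 ± 266 FPKM in controls (SD, n = 3 each). Its coefficient of variation over the 6 libraries was 151.7%, and 428 of 464 genes of like level varied less (their median was 79.1%). The limma SE and p of Mt2 give no weight to that spread. The log2 fold change was -4.01 (SE 1.45, unadjusted p = 0.00565, adjusted p = 0.852, limma), with an exact permutation p of 0.3 and a range of -5.90 to -3.04 when 1 library was left out. On reads, edgeR gave -2.59 with an adjusted p of 0.642. An antisense gene, Gm45774, overlaps Mt2, and the sources used here do not say whether the counting used strand.

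Both metallothioneins together held 1, 206 and 65 reads after tunicamycin and 350, 447 and 186 in controls, which is 0.000164%, 0.0372% and 0.0109% of reads against 0.0647%, 0.0774% and 0.0281%. Tunicamycin library 2 lay above control library 3. The pair did not keep a common ratio: Mt2 divided by Mt1 was 0.633 and 0.0150 in tunicamycin libraries 2 and 3, and 0.141, 4.83 and 0.371 in controls. The summed hepatocyte markers, given above, were lower after tunicamycin in each library, and their part in the metallothionein values was not tested. The other metallothioneins of the table, Mt3 and Mt4, were listed at 0 in all 6 libraries.

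**Figure D3:**
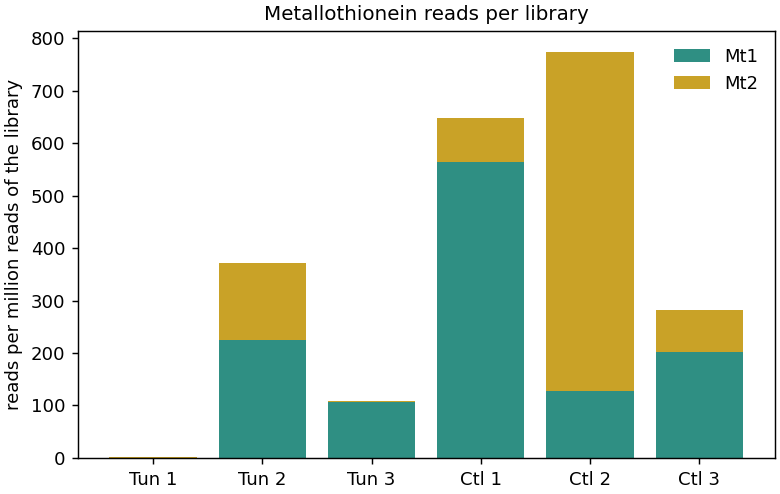
Stacked bars give Mt1 and Mt2 reads scaled to the total reads of each library (vertical axis from 0), tunicamycin libraries 1 to 3 left of control libraries 1 to 3. Tunicamycin library 1 holds 1 read of the pair, and tunicamycin library 2 with 206 reads stands above control library 3 with 186.

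The zinc-sensing side of the system was too sparse to compare. Mtf1, the transcription factor that activates metallothionein genes (chromosome 4), had 8.60 and 8.15 FPKM in tunicamycin libraries 1 and 2 and was listed at 0 in tunicamycin library 3 and in all 3 controls. Those values rest on 31 and 109 reads, and the adjusted p was 0.852 in limma, 0.642 in edgeR and 0.333 in DESeq2. Slc30a1, the zinc exporter of the cell surface (chromosome 1), was listed at 0 and had 49.6 and 1.77 FPKM after tunicamycin, against 0, 4.69 and 1.11 FPKM in controls. Its reads were 0, 45 and 17 after tunicamycin and 0, 44 and 11 in controls, so that tunicamycin library 2 and control library 2 held nearly the same number while their FPKM differed. The limma log2 fold change of 1.18 (SE 2.02, adjusted p = 0.902) turned to -0.46 without tunicamycin library 2.

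The iron importers were scattered in the same way. Tfrc, the transferrin receptor that brings iron into the cell (chromosome 16), had 5.20, 102 and 21.4 FPKM after tunicamycin, against 0, 12.4 and 19.97 FPKM in controls. Its reads were 34, 73 and 146 after tunicamycin and 0, 77 and 169 in controls, and the highest FPKM therefore did not go with the most reads. The limma log2 fold change was 1.89 (SE 1.85, adjusted p = 0.852), and on reads edgeR gave 0.02. Slc11a2, or DMT1, which carries ferrous iron across membranes (chromosome 15), had 3.41, 14.3 and 83.9 FPKM after tunicamycin, against 0, 7.58 and 5.42 FPKM in controls. Its reads were 19, 74 and 38 after tunicamycin and 0, 40 and 45 in controls, with a log2 fold change of 2.23 on FPKM (SE 1.97, adjusted p = 0.852, limma) and 0.58 on reads (edgeR). Both importers were at 0 only in control library 1, the library with the fewest genes above 0 FPKM (3046, against 4244 to 5482 elsewhere). Without control library 1 the limma log2 fold change was 0.53 for Tfrc and 1.27 for Slc11a2.

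Slc40a1, or ferroportin, the exporter that hepcidin closes (chromosome 1), was all but undetected. It was listed at 0 in tunicamycin libraries 1 and 3 and had 0.344 FPKM in tunicamycin library 2, against 0.176, 6.40 and 0 FPKM in controls. Control library 2 held 38 of the 39 control reads, and the tunicamycin libraries held 2 in all. Without control library 2 the limma log2 fold change, -0.90 with all libraries (SE 1.37, adjusted p = 0.884), was 0.026.

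FPKM and reads disagreed for 4 of the sparse genes, which was measured as the FPKM that 1 deposited count was worth. For Mt1, Mt2, Fth1, Ftl1 and Slc40a1 that worth differed at most 1.15-fold between libraries. For Tfrc it differed 10.9-fold, for Slc11a2 17.6-fold, for Slc30a1 10.1-fold and for Mtf1 3.98-fold. Tunicamycin library 2 was the odd one for Tfrc and Slc30a1, and tunicamycin library 3 for Slc11a2, which are the libraries of the highest FPKM. Annotated protein-coding transcripts run from 166 to 4890 bases for Tfrc, from 387 to 4415 for Slc11a2 and from 677 to 5244 for Slc30a1, against 333 to 1494 for Fth1; whether FPKM was divided by different transcript lengths in these libraries was not tested. Of 5817 genes with at least 10 reads in 2 or more libraries, 36.1% differed more than 2-fold.

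**Figure D4:**
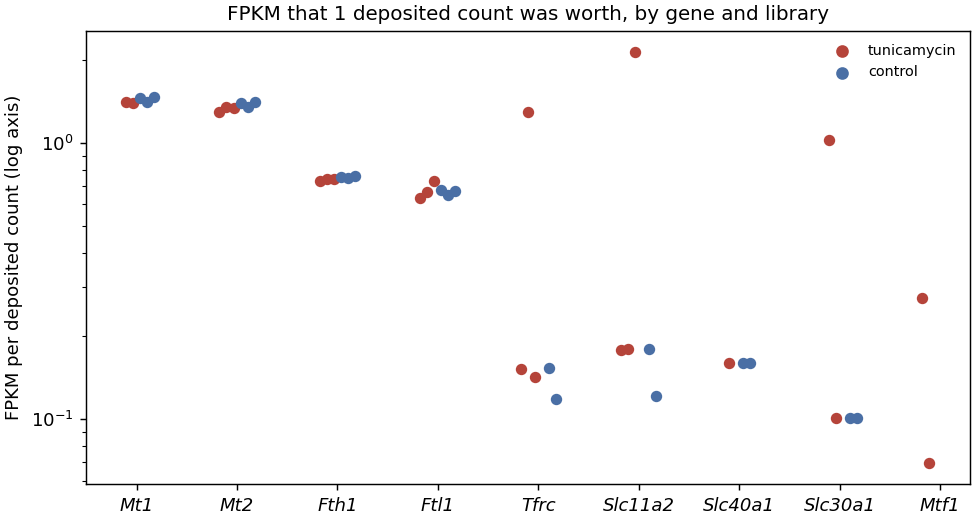
Points give the FPKM per deposited count (log axis) of each gene in each library where it was above 0, red for tunicamycin and blue for control. The points of Mt1, Mt2, Fth1, Ftl1 and Slc40a1 lie together, and single tunicamycin points of Tfrc, Slc11a2 and Slc30a1 stand 10.1 to 17.6 times above the lowest.

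Reads of the sparse genes were mostly either absent or 10 or more. Of the 42 values of the 7 genes other than the ferritins, 12 were 0 reads, 4 were 1 or 2 and 26 were 10 or more. Among genes with 10 or more reads in a library, the most frequent read number lay between 39.9 and 139. It was taken from a smoothed distribution on a log scale. Of the 26 values, 21 lay within 3-fold of that number on either side, 2 lay above that range and 3 below it. The share of all genes within that range is not given here. Ferritin values were 8.44 to 36.8 times the most frequent number of their library. For Tfrc and Slc11a2, 77.7% and 83.2% of genes of like mean were at 0 in at least 1 library, close to the 85.5% of all genes tested.

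**Figure D5:**
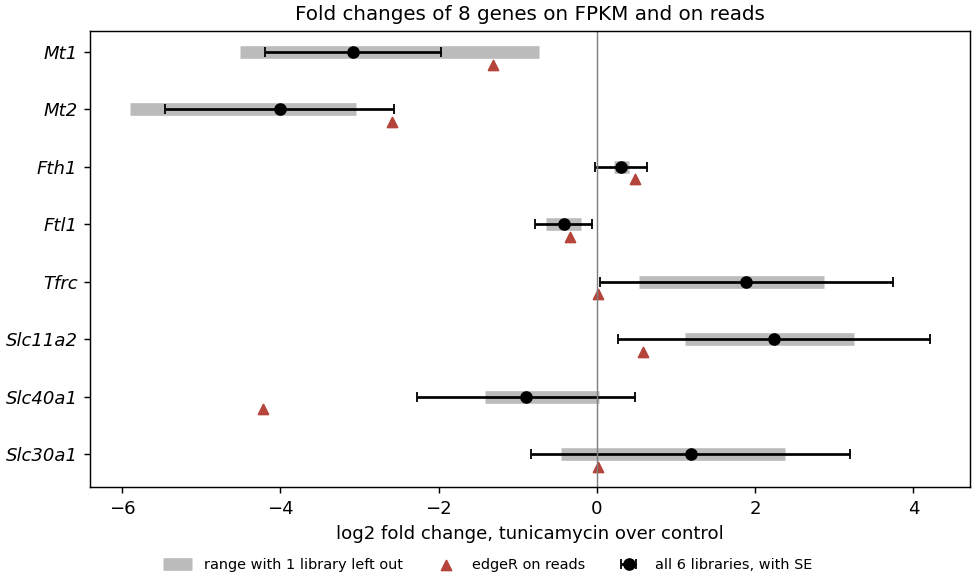
Black points give the limma log2 fold change of tunicamycin over control on log2(FPKM + 1) for 8 of the 9 genes, with SE bars; grey bands give the range with 1 library left out and red triangles edgeR's value on reads. Mtf1 is left out because its controls are all 0. The bands of Slc40a1 and Slc30a1 cross 0, and the values on reads of Tfrc (0.02) and Slc30a1 (0.02) stand near 0.

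The wider iron list of 42 genes covers transport, sensing and heme breakdown. Of its 40 genes in the table, 17 were at 0 in all 6 libraries and 23 were tested. 0 of 23 passed in limma and 0 had an unadjusted p under 0.05 (3.09% of all genes). edgeR called 0, with 0 at that unadjusted mark (1.49% of all genes). DESeq2 called 0 of the 16 with an adjusted p, and 0 of the 21 with a p reached that mark. Fold changes were positive for 7 and negative for 16, with a median log2 fold change of -0.39, where the median of all genes was 0.10. The 4 with the smallest p missed the threshold, each at an adjusted p of 0.852. Slc39a14, a zinc and iron importer of hepatocytes, had 0.899, 0 and 4.60 FPKM after tunicamycin and 14.5, 22.9 and 6.67 FPKM in controls, without overlap. Fbxl5, which marks an iron regulatory protein for degradation, had 10.1, 19.1 and 15.6 FPKM after tunicamycin and 0, 11.1 and 1.83 FPKM in controls. Steap3, a ferrireductase of endosomes, was at 0 in tunicamycin library 1 and at 32.2 and 13.7 FPKM in the other two, and in controls only control library 3 held it (3.98 FPKM). Lcn2, which binds iron-loaded siderophores, had 0.820 FPKM in tunicamycin library 1 and 44.1 FPKM in control library 3, and was at 0 elsewhere. Slc48a1, a heme transporter named after its values were seen, was the other of 2 iron genes without overlap, at 21.9, 16.1 and 15.2 FPKM after tunicamycin and 43.9, 29.5 and 24.98 FPKM in controls. It had an adjusted p of 0.916, and among all genes tested 5.74% had no overlap.

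The zinc and copper list of 32 genes had 19 tested, of which 0 passed in limma, 1 had an unadjusted p under 0.05 (3.09% of all genes) and edgeR called 0, with 0 at that mark (1.49% of all genes). DESeq2 called 0 of the 10 with an adjusted p, and 3 of the 16 with a p reached that mark (6.83% of all genes with a p). Fold changes were positive for 12 and negative for 7, with a median of 1.25, where that of all genes was 0.10. Sod1, the copper-zinc superoxide dismutase, was the 1 (limma unadjusted p = 0.0395, adjusted p = 0.852), at 146, 57.6 and 94.1 FPKM after tunicamycin and 12.2, 0 and 111 FPKM in controls. Slc39a4, a zinc importer, had 16.2, 0.269 and 0.258 FPKM after tunicamycin and 47.6, 13.2 and 29.1 FPKM in controls. Slc31a1, the copper importer, had 5.06, 4.67 and 12.7 FPKM after tunicamycin and was listed at 0 in all controls. Slc39a7, a zinc channel of the endoplasmic reticulum, had 22.2 FPKM in tunicamycin library 1 and 219 and 50.2 FPKM in control libraries 1 and 3, and was at 0 elsewhere. Slc31a1 and Slc39a3, a zinc importer named after its values were seen, were the 2 of the 19 without overlap (5.74% of all genes tested). Slc39a3 had 5.70, 0.839 and 14.96 FPKM after tunicamycin and was listed at 0 in all controls.

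The list of 26 genes of heme synthesis and iron-sulfur cluster assembly had 18 tested. Of these, 0 passed in limma and 0 had an unadjusted p under 0.05 (3.09% of all genes). edgeR called 0, with 0 at that mark (1.49% of all genes). DESeq2 called 0 of the 8 with an adjusted p (0.793% of all such genes). With DESeq2, 1 of the 15 with a p reached that mark (6.83% of all genes with a p). Fold changes were positive for 8 and negative for 10, with a median of -0.33, where that of all genes was 0.10. Glrx5, a cluster-assembly glutaredoxin, had 38.8, 0 and 60.9 FPKM after tunicamycin and was listed at 0 in controls. Nubp2, a cytosolic cluster scaffold, had 8.11 FPKM in tunicamycin library 1 and 0 in the other two, against 47.4, 6.04 and 19.3 FPKM in controls. Bola3 was at 0 after tunicamycin and had 0, 76.7 and 5.28 FPKM in controls. Alad, the second enzyme of heme synthesis, had 129, 67.5 and 39.5 FPKM after tunicamycin and 0, 104 and 70.8 FPKM in controls. Each of these 4 had an adjusted p of 0.852.

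Patterns over the 6 libraries closest to those of the 3 genes above 0 throughout were looked for among 1121 genes also above 0 throughout, by Pearson correlation of log2(FPKM + 1), as a description only since all values share the same 6 libraries and their depths. Nearest to Mt2 were Adh5 (0.96) and 8430427H17Rik (0.96), nearest to Fth1 Tspan9 (0.93) and Sp1 (0.92), and nearest to Ftl1 Smc2 (0.97) and Chd1 (0.96). Smc2 had 5.68, 38.4 and 16.9 FPKM after tunicamycin and 191, 66.2 and 9.02 FPKM in controls.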

How the data were processed

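Per the labels' protocols, ribosomal RNA was depleted and stranded paired-end libraries were sequenced. CASAVA 1.8, Cuffdiff, the aligner HISAT2 2.0.4, the trimmer cutadapt 1.9.3 and the build mm10 are named in the submitters' processing notes. The authors deposited FPKM, and beside it an estimated count, for protein-coding genes in each library.

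The deposited estimated counts are not whole. Of the values above 0, 97.2% to 98.0% were whole multiples of 1 step per library (tolerance 0.01), and 2.48% to 3.26% lay under 0.5 of a step. Division by the step and rounding gave the reads used here. An automatic step search that starts from the smallest value, here close to 0, recovered no step, and by that rule count tests would be dropped. They were kept as alternatives only, as planned, and edgeR on the deposited counts rounded as they stand was added after seeing the data.

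Groups were compared mainly with limma 3.58.1 under R 4.3.3, with a variance trend and no covariate, on log2(FPKM + 1). It covered 7696 genes whose mean FPKM reached 1, with Benjamini-Hochberg adjusted p under 0.05, 2-sided. Fold changes are on that scale, which understates changes of low genes. edgeR 4.0.16 (quasi-likelihood) and DESeq2 1.42.0 used the reads. Genes of like level have a similar mean FPKM. Named are the 9 genes, up to 4 of each list by smallest p, and the 2 nearest patterns. The members and lists were chosen with earlier results of these data known.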

Additional observations from a re-analysis of the deposited data

How the results depend on the processing

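The count of genes called among all tested, 5 with limma, was 4 with a pseudocount of 0.1, with median-of-ratios and with quantile scaling. It was 0 without a filter on low values, 2 at a mean FPKM of at least 5, 0 without the variance trend, 3 with edgeR on reads, 3 with edgeR on rounded deposited counts and 34 with DESeq2, which gave an adjusted p to 4285 genes. With 1 library left out it was 0 in every case (range 0 to 0). With the replicate number as a block it was 0, and the 9 genes had an adjusted p of 0.886 to 0.897. Same-numbered libraries correlated at -0.01 to 0.00 in their deviations, and differently numbered ones at -0.009 to 0.018. No pairing by number was seen, but values this close to 0 for every pair cannot exclude one. No gene of the 9 or of the 3 lists was called under any alternative that gave it an adjusted p. Of 142 fold changes of the 9 genes under alternatives, 37 were identical to the main value (other filters, no trend and the block leave a gene's difference of means as it is, as does leaving out a control of Mtf1). Of the other 105, 103 kept their direction; the exceptions were Slc40a1 (0.026 without control replicate 2) and Slc30a1 (-0.46 without tunicamycin replicate 2), and the cause was not tested. With 1 library left out, log2 fold changes ranged from -4.51 to -0.73 for Mt1, 0.21 to 0.40 for Fth1, -0.65 to -0.20 for Ftl1, 0.53 to 2.87 for Tfrc, 1.11 to 3.24 for Slc11a2, -1.42 to 0.026 for Slc40a1 and -0.46 to 2.37 for Slc30a1. Slc40a1 and Mtf1 were not tested at a mean FPKM of at least 5. The median log2 fold change of all genes was -0.17 without control replicate 1 and 0.32 without control replicate 3. The total of reads on protein-coding genes sets the limit on a value of 0. The spread of the sparse genes between libraries of similar totals was not traced to a cause.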
